A study of Danio rerio with 6 samples.

Results

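The genes described are 6 regulators and matrix collagens of cartilage and bone, taken by Ensembl identifier from a table of 27726 zebrafish genes. They are sox9a (ENSDARG00000003293), sox9b (ENSDARG00000043923) and col2a1a (ENSDARG00000069093) on the cartilage side, and runx2b (ENSDARG00000059233), sp7 (ENSDARG00000019516) and col10a1a (ENSDARG00000054753) on the bone side. They were chosen by identity, but with earlier results of these data known, so they are no independent evidence of direction. All 6 passed the filter on low values. RNA was sequenced from cells that carried a sox10:dsRed reporter and were purified by flow cytometry from zebrafish larvae at 6 days post fertilization. The comparison was between 3 libraries from shoc2 CRISPR/Cas9 mutants (Shoc2-/-, with the tag D22 in the titles) and 3 libraries from wild-type larvae (WT), and asked which transcripts differ when shoc2, which encodes a scaffold protein of the RAS-ERK pathway, is lost. The reporter was present in both genotypes. The labels do not say how the mutation alters the gene, how many larvae went into a library, or whether the libraries came from separate clutches, so the p-values measure only the spread between these libraries.

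Much of the skull and jaw of fish is built by cells of the cranial neural crest, which express sox10 while they migrate, and sox10 is also active in cartilage cells and in the inner ear. Sox9 is the transcription factor that commits cells to cartilage and switches on the gene of type II collagen, the main fibril of cartilage, with Sox5 and Sox6 as partners. Runx2 and Sp7 (Osterix) act in sequence to commit cells to bone formation, and type X collagen is a product of enlarging cartilage cells in mammals and also of bone-forming cells in zebrafish. Zebrafish keep duplicates of several of these genes, of which sox9a and sox9b are one pair.

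Gene-assigned reads numbered from 20088591 to 21802683 per library, and each of the 6 genes had at least 386 reads in every library. The transcript of shoc2 itself was read in all libraries, with 844.1, 797.6 and 673.0 normalized counts in mutant replicates 1, 2 and 3 and 1194, 959 and 1083 in wild-type replicates 1, 2 and 3. The genotypes did not overlap, but the log2 fold change of -0.48 (SE 0.147) did not pass the threshold (limma, Benjamini-Hochberg adjusted p = 0.636). Of the neural crest genes looked at, SOX10 ranged from 13953 to 30212 normalized counts in mutants and from 8573 to 25782 in wild type, and the early crest marker crestin stayed between 9.10 and 27.4 in all libraries. FOXD3 averaged 457 ± 196 in mutants and 719 ± 520 in wild type, and TFAP2A averaged 1941 ± 222 in mutants and 1958 ± 427 in wild type (SD, n = 3 each). All 4 overlapped between genotypes.

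The 3 cartilage genes had higher values in every mutant library than in any wild-type library, while the 3 bone genes overlapped between genotypes. The ratio of means, mutant over wild type, was 1.90 for col2a1a, 1.51 for sox9a and 1.25 for sox9b, against 1.09 for runx2b, 1.05 for sp7 and 1.02 for col10a1a. None of the 6 passed an adjusted p of 0.05 in limma, which called 1 of the 20463 tested genes (0.00489%), a gene lower in mutants. At an unadjusted p under 0.05 limma gave 2 of the 6, col2a1a and sox9a, where 5.8% of all tested genes reached that level. In DESeq2 1 of the 6 passed the adjusted threshold, col2a1a, beside 0.757% of all tested genes, and in edgeR's quasi-likelihood test none of the 6 did, with 0% of all genes called. Values of the genotypes did not overlap for 3 of the 6 genes and for 10.6% of all tested genes.

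**Figure D1:**
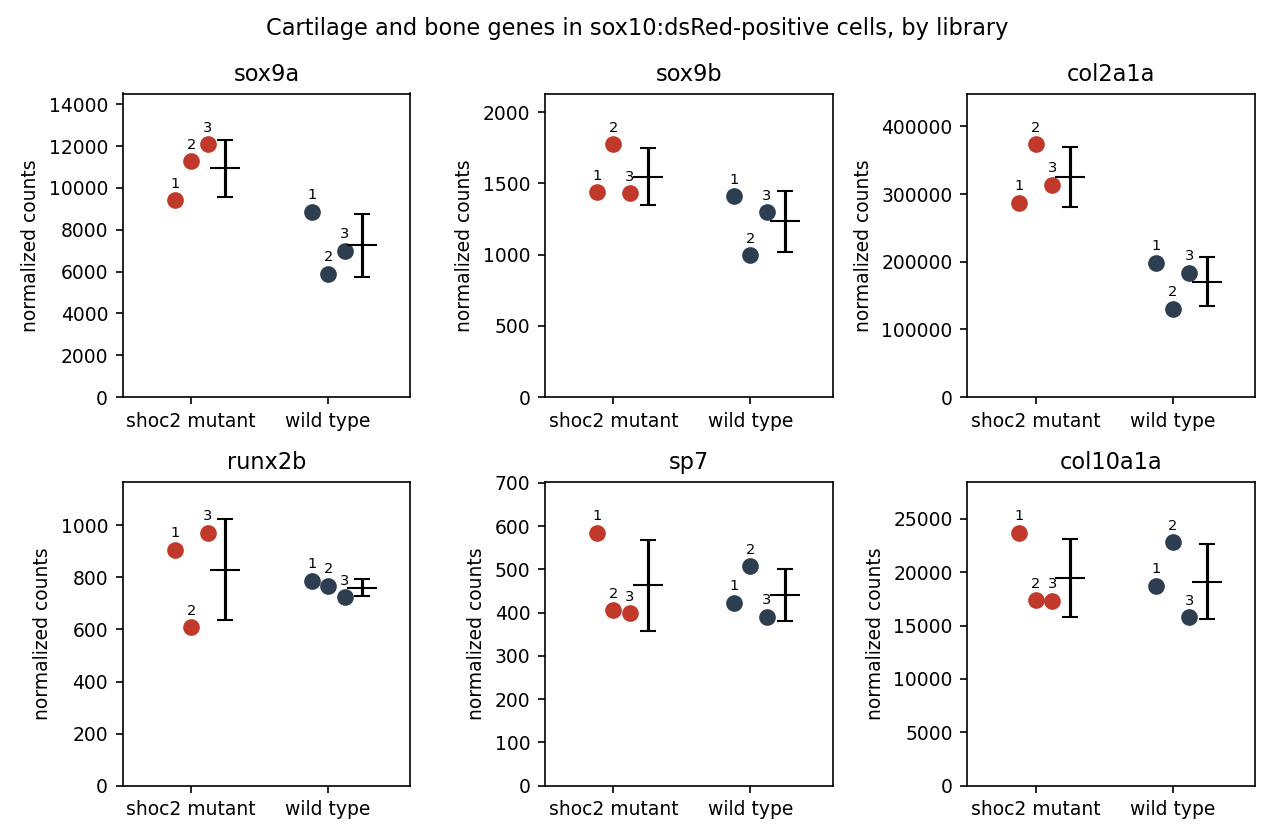
Normalized counts (linear axes from 0) of the 6 genes in each library, with shoc2 mutants in red and wild type in dark blue; numbers are replicate numbers, and the black bars are mean ± SD (n = 3 each). The mutant points of sox9a, sox9b and col2a1a all lie above the wild-type points, by a narrow margin for sox9b, and those of runx2b, sp7 and col10a1a are interleaved with them.

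The regulators of the cartilage fate come first. sox9a, the duplicate with the larger difference, had 9415, 11284 and 12093 normalized counts in mutant replicates 1, 2 and 3, against 8862, 5897 and 6996 in wild-type replicates 1, 2 and 3. The lowest mutant library lay just above the highest wild-type one, and wild-type replicate 2 was the lowest of all. The means were 10931 ± 1374 in mutants and 7251 ± 1499 in wild type (SD, n = 3 each). The log2 fold change was 0.60 (SE 0.168; 95% interval 0.22 to 0.99), with a limma adjusted p of 0.542.

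sox9b had 1438, 1776 and 1430 normalized counts in mutants and 1411, 997.6 and 1298 in wild type. Mutant replicates 1 and 3 were only slightly above wild-type replicate 1, so the absence of overlap rests on a narrow gap. Its log2 fold change of 0.33 (SE 0.164; 95% interval -0.039 to 0.70) had a limma adjusted p of 0.901 and was 0.19 without wild-type replicate 2. The exact two-sided permutation p was 0.1 for sox9a and for sox9b, the smallest that 3 against 3 libraries allow.

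The balance of the duplicates was taken within each library as the log2 value of sox9a minus that of sox9b. It was 2.71, 2.67 and 3.08 in mutants and 2.65, 2.56 and 2.43 in wild type. The genotypes did not overlap, although mutant replicate 2 and wild-type replicate 1 nearly met. The means were 2.82 ± 0.227 in mutants and 2.55 ± 0.111 in wild type (SD, n = 3 each), a description to which no test was applied. These differences are not corrected for transcript length, so they compare libraries and do not say which duplicate is more abundant.

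col2a1a, the gene of type II collagen and the classical target of Sox9, had the highest mean value in the whole table. It had 287056, 373858 and 314164 normalized counts in mutant replicates 1, 2 and 3 and 198299, 130639 and 183504 in wild-type replicates 1, 2 and 3. The highest library was mutant replicate 2 and the lowest was wild-type replicate 2, and the gap between the genotypes was wider than for either sox9 gene. Its log2 fold change was 0.94 (SE 0.196; 95% interval 0.50 to 1.39), with an exact two-sided permutation p of 0.1. The adjusted p was 0.336 in limma, 0.252 in edgeR's quasi-likelihood test and 0.00392 in DESeq2, so the call depended on the test.

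runx2b, which starts the bone programme, had 906.0, 608.7 and 972.2 normalized counts in mutants and 787.6, 768.5 and 724.7 in wild type. The mutant libraries lay on both sides of the wild-type ones, with mutant replicate 2 the lowest of the 6. The mutant SD of 194 compared with 32.2 in wild type (n = 3 each). The log2 fold change was 0.096 (SE 0.186; 95% interval -0.33 to 0.52; limma adjusted p = 0.983) and -0.033 without mutant replicate 3.

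sp7, which encodes Osterix and acts after Runx2, had 585.0, 405.5 and 398.0 normalized counts in mutants and 423.1, 506.7 and 390.2 in wild type. Mutant replicate 1 was the highest library and the other two mutant libraries lay within the wild-type range. The log2 fold change was 0.058 (SE 0.196; 95% interval -0.39 to 0.50; limma adjusted p = 0.991). It changed sign when mutant replicate 1 was left out (-0.12) or wild-type replicate 3 was left out (-0.024).

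col10a1a, the collagen gene of bone-forming and enlarging cartilage cells, had 23719, 17367 and 17326 normalized counts in mutants and 18742, 22804 and 15800 in wild type. The libraries stood in the same order as for sp7, with mutant replicate 1 highest, wild-type replicate 2 second and wild-type replicate 3 lowest for both genes. The log2 fold change was 0.027 (SE 0.177; 95% interval -0.37 to 0.43; limma adjusted p = 0.995), and it was -0.12 without mutant replicate 1 and -0.10 without wild-type replicate 3. For all 3 bone genes the intervals include 0 and also differences of about the size seen for sox9b, so they do not show that the genotypes are alike.

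**Figure D2:**
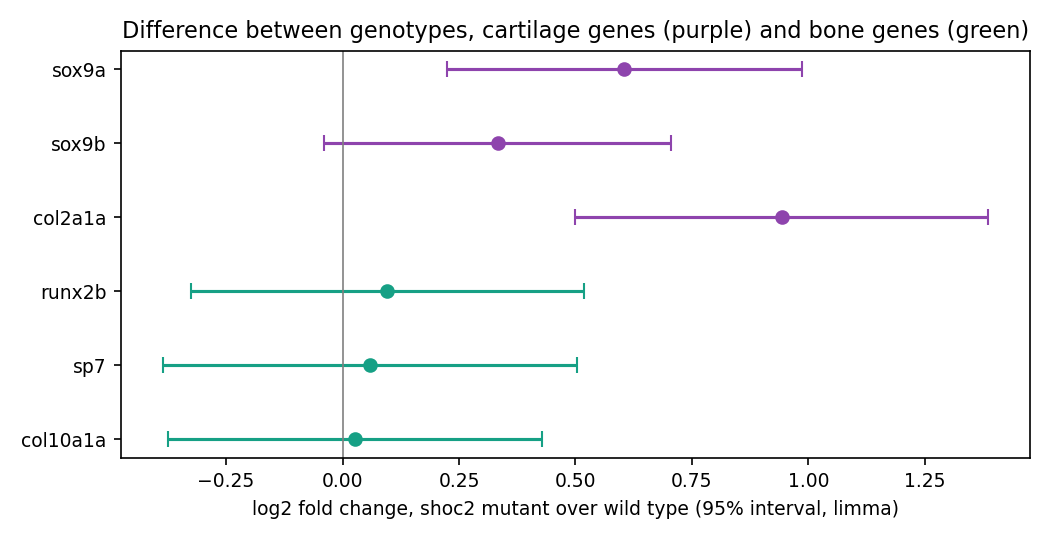
Log2 fold change of each gene, shoc2 mutant over wild type, from limma on log2(normalized count + 1), with 95% intervals as bars; cartilage genes are purple and bone genes green. The intervals of sox9a and col2a1a lie above 0 before any adjustment for the number of genes tested, that of sox9b reaches just below 0, and those of the 3 bone genes are centred near 0.

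Within-library differences set the later markers against the earlier ones. The log2 value of col10a1a minus that of col2a1a was -3.60, -4.43 and -4.18 in mutants and -3.40, -2.52 and -3.54 in wild type. Every mutant library was below every wild-type one, by a margin that was small between mutant replicate 1 and wild-type replicate 3. The means were -4.07 ± 0.427 in mutants and -3.15 ± 0.554 in wild type (SD, n = 3 each). The log2 value of sp7 minus that of runx2b was -0.63, -0.58 and -1.29 in mutants and -0.89, -0.60 and -0.89 in wild type, and here the genotypes overlapped. The shift in the mean of col10a1a minus col2a1a mostly restates the fold change of col2a1a, as col10a1a had a log2 fold change of 0.027. No test was applied to these within-library differences.

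**Figure D3:**
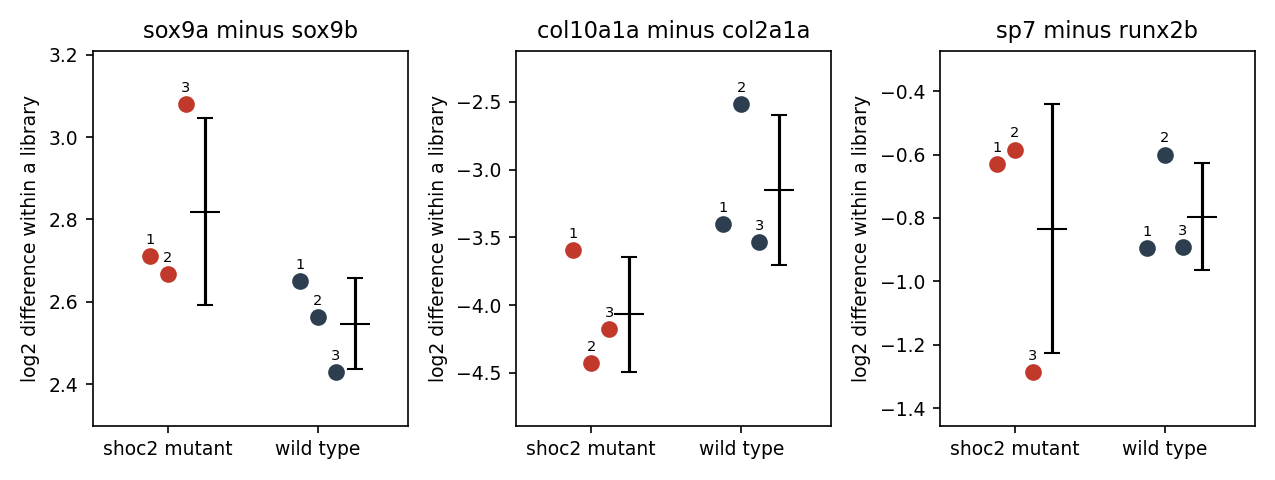
Log2 difference between a pair of genes within each library (no unit; the axes do not start at 0), with shoc2 mutants in red and wild type in dark blue; numbers are replicate numbers and black bars are mean ± SD (n = 3 each). The genotypes separate for sox9a minus sox9b and for col10a1a minus col2a1a, and overlap for sp7 minus runx2b.

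Other genes of the cartilage programme were described next, from a list of 40 symbols of which 37 could be paired with 38 genes in the table. All 38 passed the filter on low values, and 34 had a positive log2 fold change, where 51.5% of all tested genes did. Their median log2 fold change was 0.60, beside 0.0078 for all tested genes. In 18 of the 38 every mutant library was above every wild-type library, and in 1, col27a1b, every mutant library was below, beside 5.29% and 5.28% of all tested genes. None of the 38 passed the adjusted threshold in limma or in edgeR's quasi-likelihood test. At an unadjusted p under 0.05 limma gave 19 higher and 1 lower in mutants, beside 2.88% and 2.91% of all tested genes. DESeq2 called 9 of the 38 at its adjusted threshold, all higher in mutants, beside 0.23% of all tested genes called higher. The list was put together with earlier results of these data known, so it is no independent evidence of direction.

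The 5 most highly read genes of the list were collagens and a matrilin. The gene listed as COL11A1 (ENSDARG00000026165), which encodes a chain of type XI collagen, had 67591, 99675 and 79588 normalized counts in mutants and 50444, 36558 and 47888 in wild type. COL11A2, another chain of the same collagen, had 58077, 83820 and 68663 in mutants and 42629, 28093 and 41554 in wild type. In both genes the genotypes did not overlap, with mutant replicate 2 highest and wild-type replicate 2 lowest. Their log2 fold changes were 0.87 (SE 0.185) and 0.92 (SE 0.200), with limma adjusted p of 0.366 and 0.367 and DESeq2 adjusted p of 0.0108 and 0.0146. The second gene listed as COL2A1 (ENSDARG00000011407) had 65260, 73518 and 66821 in mutants and 53718, 49121 and 51532 in wild type, also without overlap. Its log2 fold change of 0.41 (SE 0.122; limma adjusted p = 0.600) was smaller in size than that of col2a1a, a difference between genes that was not tested. The remaining genes among the 5 most highly read of the list overlapped between genotypes. They were col11a1b, with a log2 fold change of 0.083 (SE 0.137), and MATN4, which encodes a matrilin, with 0.31 (SE 0.151).

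Of the 38 genes, 13 had a log2 fold change of at least 1, where 431 of the 20463 tested genes did. epyc, which encodes the small proteoglycan epiphycan, had 9134, 15152 and 11785 normalized counts in mutants and 7010, 4014 and 6743 in wild type, with a log2 fold change of 1.03 (SE 0.245; adjusted p = 0.405 in limma and 0.0252 in DESeq2). The following genes were picked after their values were seen. acana, a gene of the proteoglycan aggrecan, had 8988, 21073 and 13763 in mutants and 7865, 2494 and 5674 in wild type. Mutant replicate 1 was only a little above wild-type replicate 1. The log2 fold changes of acana, acanb and MATN1 (matrilin 1) were 1.52 (SE 0.419), 1.59 (SE 0.405) and 1.30 (SE 0.345), with limma adjusted p of 0.536, 0.505 and 0.518. MIA, a secreted protein of cartilage cells, had the highest log2 fold change of the list, 1.63 (SE 0.466; limma adjusted p = 0.565). Not all matrix genes were higher. hapln1a, a link protein gene that joins aggrecan to hyaluronan, had 8737, 6839 and 8360 in mutants and 8471, 14543 and 10744 in wild type. Its log2 fold change was -0.47 (SE 0.195; limma adjusted p = 0.823), while another link protein gene, listed as HAPLN1 (ENSDARG00000068516), had 1.13 (SE 0.291).

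A few regulators and signals of the cartilage list, picked after their values were seen, are given next. SOX5, a partner of Sox9, had a log2 fold change of 0.098 (SE 0.133), and SOX6, the other partner, had 0.30 (SE 0.123) without overlap of the genotypes. FGFR3, a receptor of growing cartilage, had 0.46 (SE 0.163), also without overlap. The gap was narrow, with 3189 normalized counts in mutant replicate 1 and 3136 in wild-type replicate 1. PTH1R, the receptor that holds back cartilage enlargement, had a log2 fold change of -0.074 (SE 0.198). Of the Indian hedgehog ligands, ihha had a log2 fold change of 0.24 (SE 0.306) and ihhb had 1.53 (SE 0.754). ihhb was read at a low level, 13.3 ± 0.861 normalized counts in mutants and 5.39 ± 5.84 in wild type (SD, n = 3 each). Its genotypes did not overlap, but mutant replicate 2 (12.3) and wild-type replicate 3 (12.1) were nearly tied. None of these 6 genes passed the limma threshold.

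**Figure D4:**
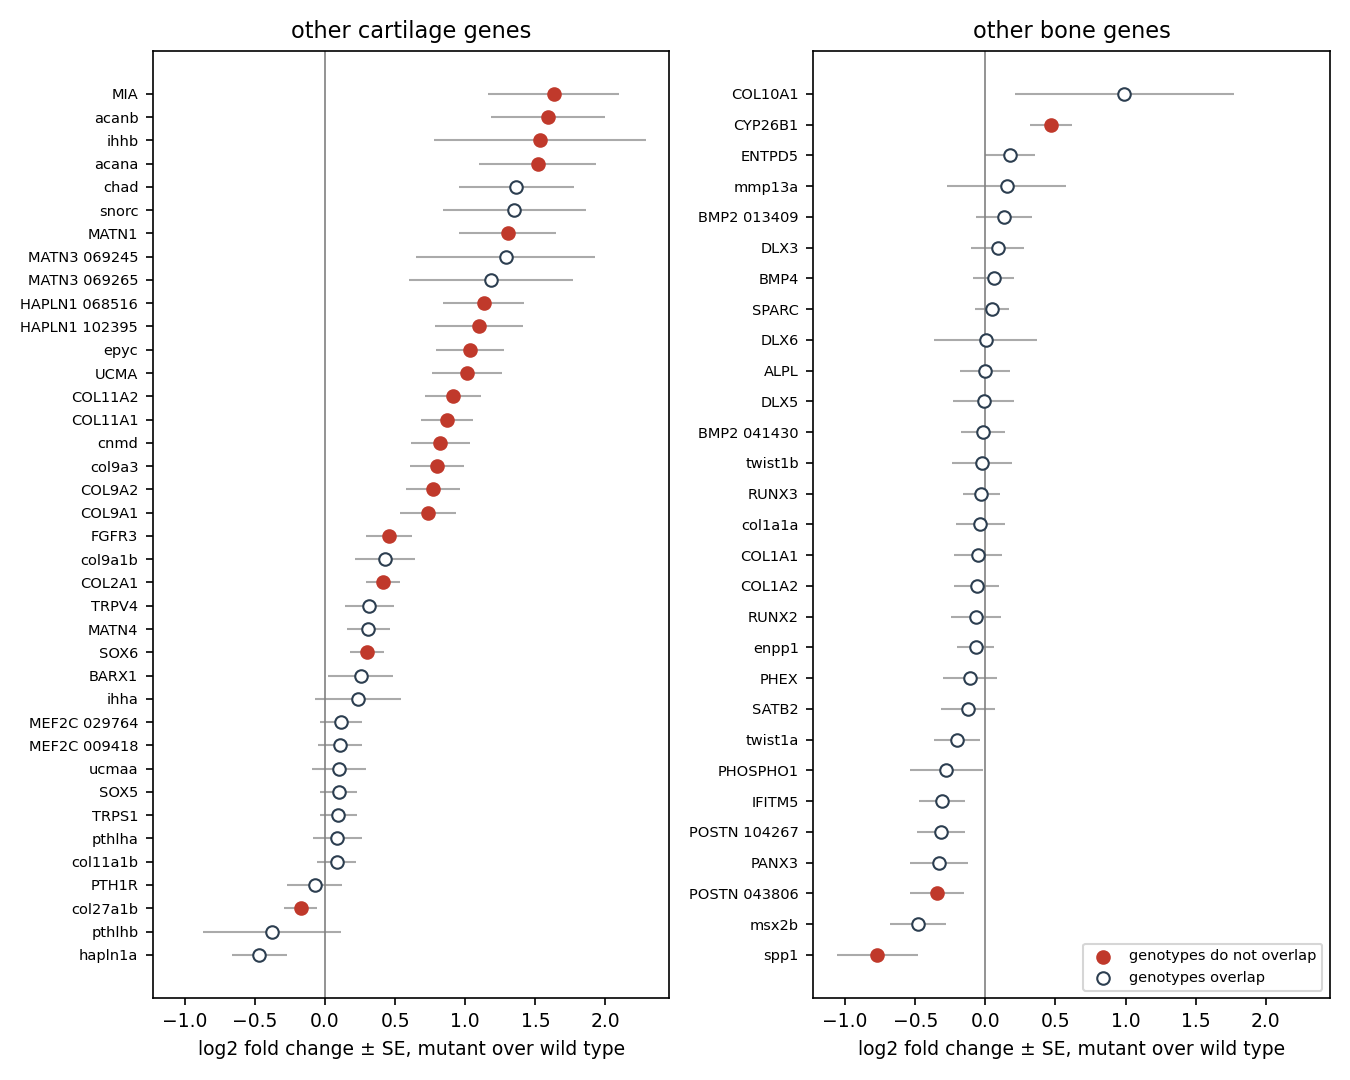
Log2 fold change ± SE (limma), shoc2 mutant over wild type, of 38 other cartilage genes on the left and 29 other bone genes on the right, named as in the symbol table, with the last digits of the identifier where a symbol occurs more than once. Filled red points are genes whose 3 mutant and 3 wild-type values do not overlap, 19 on the left and 3 on the right; most cartilage points lie to the right of 0 and the bone points lie around it.

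Other genes of the bone programme were described in the same way. Of 31 symbols, 30 could be paired with 30 genes in the table. Of these, 29 passed the filter, and bglap (osteocalcin) did not, since it had no read in any library. Of the 29, 9 (31.0%) had a positive log2 fold change and 20 a negative one, beside 51.5% positive among all tested genes. The median of the 29 was -0.036, and it was 0.033 without wild-type replicate 2. None passed the adjusted threshold in limma, edgeR or DESeq2, and at an unadjusted p under 0.05 limma gave 1 higher and 2 lower in mutants, where 2.88% and 2.91% of all tested genes reached that level. Genotypes did not overlap for 1 of the 29 (3.45%) that was higher and 2 (6.90%) that were lower in mutants, near the 5.29% and 5.28% of all tested genes.

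The gene that was higher without overlap was CYP26B1, which encodes an enzyme that breaks down retinoic acid, with 5471, 5008 and 5610 normalized counts in mutants and 4356, 4246 and 3132 in wild type. Its log2 fold change was 0.47 (SE 0.147; limma adjusted p = 0.645). spp1 (osteopontin), a secreted protein of bone that other cells also make, had 1086, 1212 and 1261 in mutants and 3462, 1416 and 1681 in wild type. All mutant libraries were below the wild-type ones, and wild-type replicate 1 stood far above the other libraries. Its log2 fold change was -0.77 (SE 0.289; limma adjusted p = 0.772). The other gene that was lower without overlap was a gene listed as POSTN (ENSDARG00000043806), a periostin of connective tissue and bone surfaces, at -0.34 (SE 0.193). Its genotypes were nearly tied, with 2427.2 normalized counts in mutant replicate 3 and 2427.9 in wild-type replicate 3.

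The 5 most highly read bone genes overlapped between genotypes. col1a1a, the main type I collagen gene, averaged 154260 ± 21580.4 normalized counts in mutants and 158540 ± 26451 in wild type (SD, n = 3 each). The log2 fold changes of col1a1a, COL1A1, COL1A2 and SPARC lay between -0.060 and 0.048, and none exceeded its SE. The second gene listed as POSTN (ENSDARG00000104267) had -0.32 (SE 0.171). msx2b, a transcription factor gene of bone and fin precursors, had the third smallest p of the list, with a log2 fold change of -0.48 (SE 0.200; limma adjusted p = 0.823). The gene listed as RUNX2, the duplicate of runx2b, had 358.7, 305.9 and 254.5 in mutants and 327.0, 297.7 and 329.5 in wild type, with overlap. Another gene listed as COL10A1 (ENSDARG00000101535), the symbol also given to col10a1a, was picked after its values were seen. It had 14.5, 23.6 and 74.6 in mutants and 4.81, 17.9 and 32.3 in wild type, a low level, with overlap. Its log2 fold change of 0.99 (SE 0.779; limma adjusted p = 0.960) was the highest of the bone list.

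The libraries of each genotype also differed among themselves. For the 38 cartilage genes, the median deviation of a library from each gene's mean over the 6 libraries was 0.14, 0.54 and 0.34 on the log2 scale in mutant replicates 1, 2 and 3, and -0.091, -0.57 and -0.23 in wild-type replicates 1, 2 and 3. Mutant replicate 2 was the highest library for 23 of the 38 genes and wild-type replicate 2 the lowest for 25. Together the 38 genes took 2.21%, 2.92% and 2.56% of the reads in mutants and 1.84%, 1.37% and 1.71% in wild type. For the 29 bone genes the same libraries stood the other way round. Wild-type replicate 2 was the highest for 16 of them, and mutant replicate 2 the lowest for 11. Without wild-type replicate 2 the cartilage median log2 fold change was 0.46, and without mutant replicate 2 it was 0.50. The log2 fold change of col2a1a alone was 0.76 without wild-type replicate 2 and 0.84 without mutant replicate 2.

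**Figure D5:**
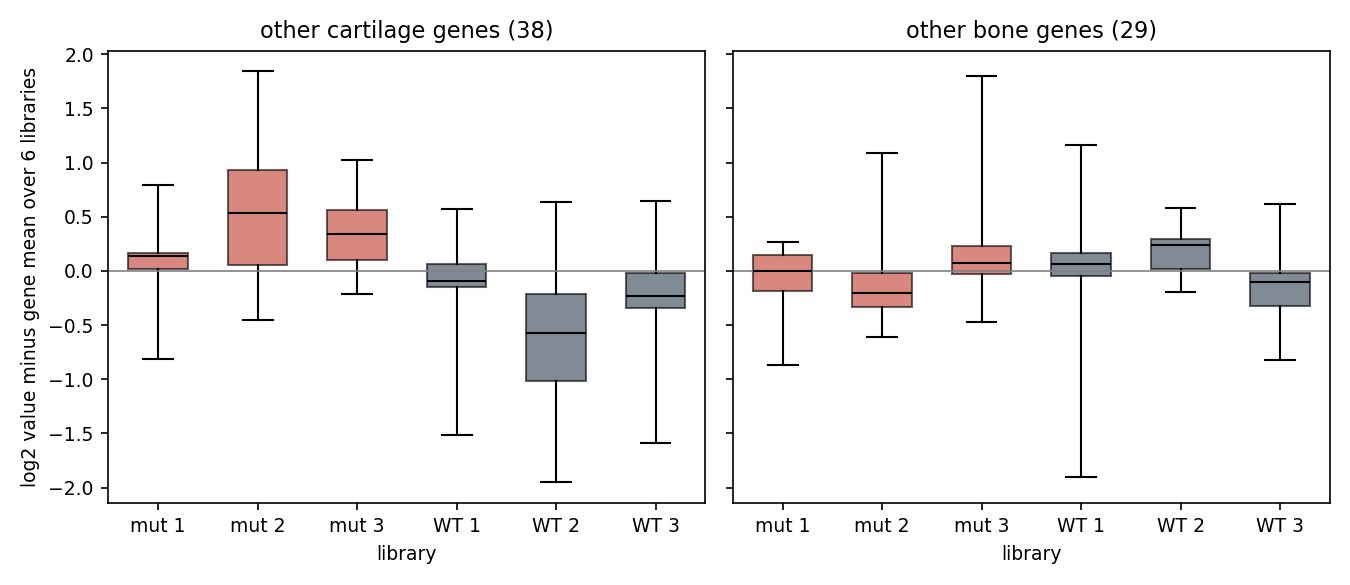
Deviation of each gene's log2(normalized count + 1) from its mean over the 6 libraries, by library (mut, shoc2 mutant; WT, wild type), for 38 cartilage genes and 29 bone genes. Boxes span the quartiles with the median as a line, and whiskers reach the lowest and highest gene; the cartilage medians run from -0.57 in WT 2 to 0.54 in mut 2, and the bone medians from -0.20 in mut 2 to 0.24 in WT 2.

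Markers of other cell types also differed between these libraries. In sorted bulk cells, a change in the number of cartilage cells and a change in the RNA each of them makes cannot be told apart. SOX10, whose reporter was used for the sort, had 13953, 30212 and 27904 normalized counts in mutants and 25782, 8573 and 14620 in wild type, so wild-type replicate 2 was lowest and mutant replicate 2 highest, as for col2a1a. The 4 epithelial markers looked at, all read in every library, summed to between 35303 and 60639 in mutants and between 41386 and 130968 in wild type. Wild-type replicate 2 had the highest sum, which came mainly from krt4 (68188) and krt5 (56826). The markers cdh1 and epcam did not follow. cdh1 was lowest in that library (1591), and epcam had 4363 there and 8988 in wild-type replicate 3. The 3 inner ear markers, another place where sox10 is active, summed to between 7603 and 14649 in mutants and between 4575 and 15697 in wild type. Wild-type replicate 2 was again lowest, but wild-type replicate 1 was the highest of all libraries, unlike for col2a1a. Mutant replicate 1 (7603) was close to wild-type replicate 3 (7340). The 6 muscle markers summed to between 4747 and 34326 in mutants and between 2517 and 16880 in wild type. Of the leukocyte markers, cd74a did not overlap, with 24.2 to 124 normalized counts in mutants and 546 to 1627 in wild type. Its adjusted p was 0.124 in limma and 9.34e-05 in DESeq2, while ptprc, lyz and CORO1A overlapped between genotypes. None of these marker genes passed the limma threshold, and their part in the cartilage values was not tested. The notochord, which also makes type II collagen, was followed by 6 genes, whose sums were 1164 to 1302 in mutants and 984 to 1428 in wild type. The largest part of the sum was CAV1, which averaged 675 in mutants and 802 in wild type. The other 5 genes had higher means in mutants, among them col8a1a with 97.4 ± 52.3 in mutants and 55.8 ± 13.0 in wild type (SD, n = 3 each). All 6 overlapped between genotypes. Its defining genes tbxta and noto had at most 20.5 and 14.4 normalized counts in mutants and at most 4.22 and 5.77 in wild type, and neither passed the filter.

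Genes whose pattern over the 6 libraries was most like that of col2a1a, sox9b and the 3 bone genes were found by Pearson correlation of log2 values, against 16697 other genes that averaged 50 normalized counts or more. For col2a1a the closest was COL11A2 (r = 0.995). For sox9b it was trpc2b (r = 0.995), for runx2b SLC16A6 (r = 0.996), for sp7 PCNA (r = 0.993) and for col10a1a CDS2 (r = 0.994). Between 76 and 301 genes had an r over 0.9 with each of these 5, and the values are given as a description without a test.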

How the data were processed

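The authors deposited 1 table of normalized counts per gene, a signal in which each library's read counts were scaled by a size factor of its own. Per the submitters' processing notes, FastQC 0.11.7, STAR 2.6, Cuffnorm and the build GRCz11 were used. The role of each, the annotation, the strand setting and the size factor method are not given in the sources used here, so reads shared between near-identical duplicates or overlapping genes cannot be set apart. Symbols came from a reference table that paired 25324 of the 27726 identifiers. It does not keep the letters of the duplicates sox9a, sox9b, col2a1a and col10a1a, and it gives sp7 as SP7. The names of these genes follow the selection rule.

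Values were taken as log2(normalized count + 1). Genes with at least 10 normalized counts in at least 3 libraries (20463) were fitted with limma 3.58.1 (mean-variance trend) in R 4.3.3, with Benjamini-Hochberg adjustment over all of them and a threshold of 0.05. All 100% of values were whole multiples of 1 step per library within 0.001 reads, so edgeR 4.0.16 and DESeq2 1.42.0 were run on whole reads as alternatives. The fits were tested on simulated data in which each gene varied independently of the others. That test does not cover libraries in which many genes shift together. Symbols of the lists were matched with case ignored, and without the duplicate's letter where that was needed. Beyond the 6 genes, names from the cartilage and bone lists follow a rule: in each list the 5 highest means and the 3 smallest p-values. Genes picked after their values were seen are marked in the text, with some exceptions. Named outside the rule without a mark are col27a1b, bglap, RUNX2 and the POSTN gene that was lower without overlap. The genes and lists were chosen with earlier results of these data known.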

Additional observations from a re-analysis of the deposited data

How the results depend on the processing

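No gene of the 6 passed the adjusted threshold under 15 of 16 alternatives, and DESeq2 gave 1, col2a1a, with a log2 fold change of 0.92. DESeq2 also gave 9 of the 38 other cartilage genes, where limma and the other alternatives gave 0; the other bone genes stayed at 0 throughout. Over all tested genes the count of 1 became 155 with DESeq2, 3 without a filter, 0 without the variance trend (1227 at an unadjusted p under 0.05), 0 in edgeR's quasi-likelihood test (1232 unadjusted) and between 0 and 4 when a library was left out. With the replicate number as a block it was 0 (906 unadjusted) and 0 of the 6 genes passed. Same-numbered libraries deviated from their genotype means with a correlation of -0.108 on average. With 3 libraries a genotype, this cannot tell whether same-numbered libraries shared a clutch or a sort, which the labels do not say. For none of these changes was the cause tested.

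The log2 fold changes of col2a1a, sox9a and sox9b kept their sign under all 16 alternatives. With a library left out, those of runx2b ran from -0.033 to 0.30, those of sp7 from -0.12 to 0.16 and those of col10a1a from -0.12 to 0.16. In alternatives added after the data were seen, each library was left out in turn. From 18 to 25 cartilage genes were then higher without overlap, and from 3 to 7 bone genes were without overlap. Fewer libraries overlap less often, and the share of all tested genes was not computed with a library left out. Whether these counts exceed that share is therefore not known. Rescaling moved the median of all genes by less than 0.1 on the log2 scale. Each of the 6 genes had at least 386 reads in every library, and the number of libraries, 3 a genotype, limits the precision of the fold changes.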
